A study of Mus musculus with 11 samples.

Results

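The coagulation and complement plasma proteins were described as a list of 38 genes, out of 20893 genes in the expression table. The list was chosen by symbol and not by a cut on measured values, but with earlier results of these data known. All 38 were measured and all 38 passed the filter on low values, among 14244 genes tested. They were followed in bulk RNA-seq of 11 mouse livers on a C57BL/6 background, 1 library per liver, in 3 groups. The 4 control livers had the genotype ROSA26-rtTA-IRES-EGFP; WT and received doxycycline food for 7 days. The induced livers had the genotype ROSA26-rtTA-IRES-EGFP; tetYAP and received the same food for 3 days (4 livers) or 7 days (3 livers). All groups thus carried the rtTA allele and were fed the drug. In this cross, as the study's methods describe it, Cre under the albumin promoter opens the rtTA allele in hepatocytes, and rtTA with doxycycline then switches on a constitutively active mutant of YAP, the transcriptional co-activator that the Hippo pathway holds back. Whether the controls also carried Cre, and the age of the mice, are not given in the sources used here.

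The liver makes most of the proteins of the clotting and complement systems and secretes them into the blood. In clotting, a chain of proteases, several of which need vitamin K for their maturation, ends in thrombin, which turns fibrinogen into fibrin. In complement, the lectin, classical and alternative routes meet at the cleavage of C3, and the terminal components C5 to C9 then assemble a pore in the target membrane. The genes are taken below by role.

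Levels are given as eRPKM, a measure of exon reads per kilobase of gene length that the authors normalized to library size. The scale is per length, but the level of an abundant gene also went with depth, as given next. Levels and ranks of different genes can therefore be compared only roughly. The libraries held 1251396 to 5495697 reads on genes in controls, 2660233 to 3681416 in 3-day livers and 5312486 to 5941357 in 7-day livers, so the 7-day livers were the deepest group. Reads of abundant genes did not keep pace with depth: the deepest control had 4.39 times the reads of the shallowest, whereas the median of the 38 genes was 2.23 times, against 5.99 times for all tested genes. Fgb had only 1737 to 2214 reads over all 11 livers, so a fall in the RNA of such a gene could also be hidden. In 32 of the 38 genes the shallowest control, control 4, had the highest eRPKM of the controls. A fall at 7 days was therefore also set against the 2 deepest controls alone, against the deepest control by itself (control 2), and in a fit with log2 depth as a covariate. Control livers 2 and 3, 3-day livers 3 and 4 and all 7-day livers had 78.5 to 133 eRPKM of Xist, and the other 4 livers had 0.153 to 3.12, so sex and the 7-day group cannot be fully told apart. Yap1 reads did not tell the groups apart (log2 fold change at 7 days 0.03, SE 0.17, limma adjusted p = 0.917). Whether transgene reads fall on that gene is not given in the sources used here. Hepatocyte markers were present in every library, with 0 of the 12 at 0.

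After 3 days of YAP induction, none of the 38 genes passed the test (limma on log2(eRPKM + 0.5), adjusted p under 0.01 and absolute log2 fold change above 0.5, the thresholds used throughout). Across all genes 0% were called lower and 0.0421% higher. Limma-voom on the recovered reads also called 0 of the 38, with 0% of all genes lower and 0.00702% higher. At an unadjusted p under 0.05, 6 genes were lower and 0 higher, which is 15.8% against 4.21% of all genes at that limit in that direction. These 6 were F5, F11, Klkb1, Itih1, Masp1 and Hc. The median log2 fold change of the 38 genes was -0.21, against 0.02 for all tested genes, and with the 2 deepest controls it was 0.10. In 2 genes, F5 and F11, every 3-day liver lay below every control, which is 5.26% against 2.25% of all genes.

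After 7 days, 16 of the 38 genes were called lower (42.1%) and 0 higher, where 5.77% of all genes were called lower and 18% higher. The genes that fell encode the contact proteases F11 and Klkb1, the vitamin K dependent proteins F7, F9, F10 and Proc, the cofactor F5, F13b of the fibrin crosslinking factor, Plg and Cpb2 of fibrinolysis, Itih1, the lectin Mbl2 and C4b, and the terminal complement genes Hc, C8b and C8g. The largest falls were those of F11, Klkb1, C8b and C8g, with log2 fold changes of -3.83, -3.14, -2.57 and -2.06. The median of the 38 genes was -0.86, against 0.26 for all tested genes, and 37 of the 38 values were below 0. In bulk tissue, fewer hepatocytes and less RNA per hepatocyte cannot be told apart. The summed level of 12 hepatocyte markers was 2488 to 6861 eRPKM in controls, 2974 to 3592 in 3-day livers and 1777 to 2046 in 7-day livers, and 5 of the 12 were called lower at 7 days, with a median of -0.91. The summed level of 7 macrophage and Kupffer cell markers was 204 to 418, 264 to 473 and 792 to 863 eRPKM in the same order, and 5 of the 7 were called higher. The top of the hepatocyte range in controls came from the shallowest of them. With the 2 deepest controls 4 of the 12 hepatocyte markers were called lower, Ttr, Ass1, Cyp2e1 and Glul. Alb, Apob, Apoa1 and Trf then went from -0.88, -0.82, -0.76 and -0.68 to -0.27, -0.28, -0.18 and -0.08. Of the macrophage markers 5 were still called higher. Of the other marker lists, 1 of 6 cholangiocyte, 2 of 8 endothelial, 1 of 6 T and NK cell, 2 of 3 neutrophil and 1 of 3 platelet markers were called higher, 0 of 8 stellate cell and 0 of 4 B cell markers were called, and 1 of 2 erythroid markers was called lower. The part of these shifts in the falls was not tested.

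**Figure D1:**
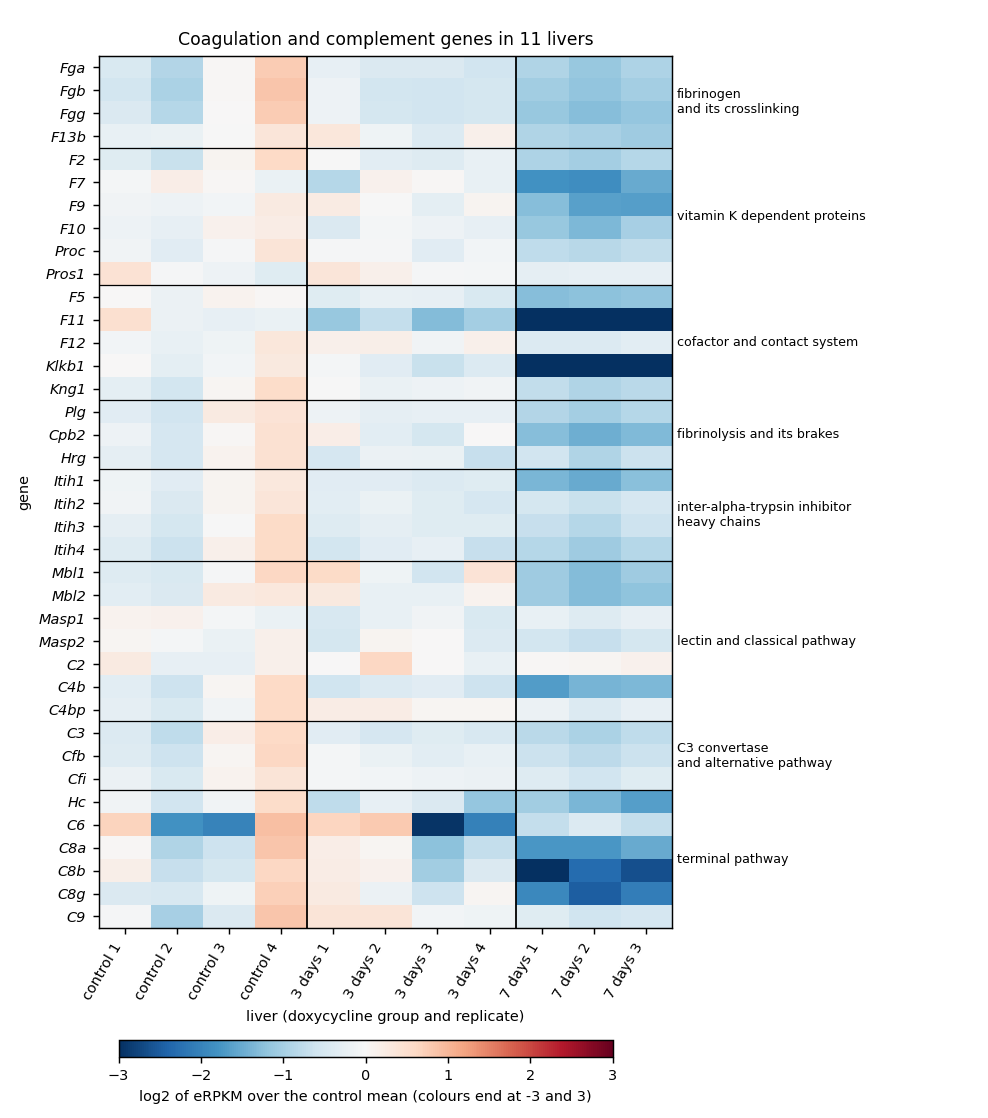
Each row is a gene and each column a liver, and colour gives log2 of the eRPKM over the mean of the 4 controls, with genes ordered by role and blue below the control mean. The 7-day columns are blue in nearly every row and darkest for F11, Klkb1 and C8b, control 4 is the reddest control, and the C6 row follows another pattern than its neighbours.

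Of the 16 genes, 12 were also called lower with the 2 deepest controls, in the fit with depth as a covariate, and in the Xist-high libraries alone: F7, F9, F10, F5, F11, Klkb1, Cpb2, Itih1, Mbl2, C4b, C8b and C8g. Limma-voom called 21 of the 38 (55.3%) lower, against 6.66% of all genes. With the 2 deepest controls 12 of the 38 (31.6%) were called, against 4.06% of all genes, and with depth as a covariate also 12 (31.6%), against 4.05%. In the Xist-high libraries 13 genes (34.2%), the 12 named and C8a, were lower, against 4.25% of all genes. F13b, Proc, Plg and Hc were not called in any of these 3 fits, with log2 fold changes of -0.77, -0.54, -0.46 and -1.02 against the 2 deepest controls. The median of the 38 genes was -0.50 with the 2 deepest controls and -0.42 with depth as a covariate. Against control 2 alone, which also had high Xist, it was -0.38, and in 32 genes (84.2%) every 7-day liver lay below that control, compared with 32.5% of all genes. Abundance went with the shift: the 891 tested genes with at least 300 reads per kilobase had a median of -0.50 at 7 days and 27.5% of them were called lower. Of the 38 genes, 30 belonged to these and 12 of the 30 (40%) were called lower. Of the 30, 26.7% were called lower with the 2 deepest controls, against 17.6% of the 891. With depth as a covariate the shares were 26.7% and 16.8%, and in the Xist-high libraries 30% and 16.7%. In those libraries with depth as a covariate they were 0% and 4.15%. Without control 2 the count of the 38 genes called was 27. In the 7 Xist-high livers with depth as a further covariate it was 3 (7.89%, against 1.14% of all genes). The genes of that last count were F7, F11 and Klkb1, which were called in every alternative fit run.

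**Figure D2:**
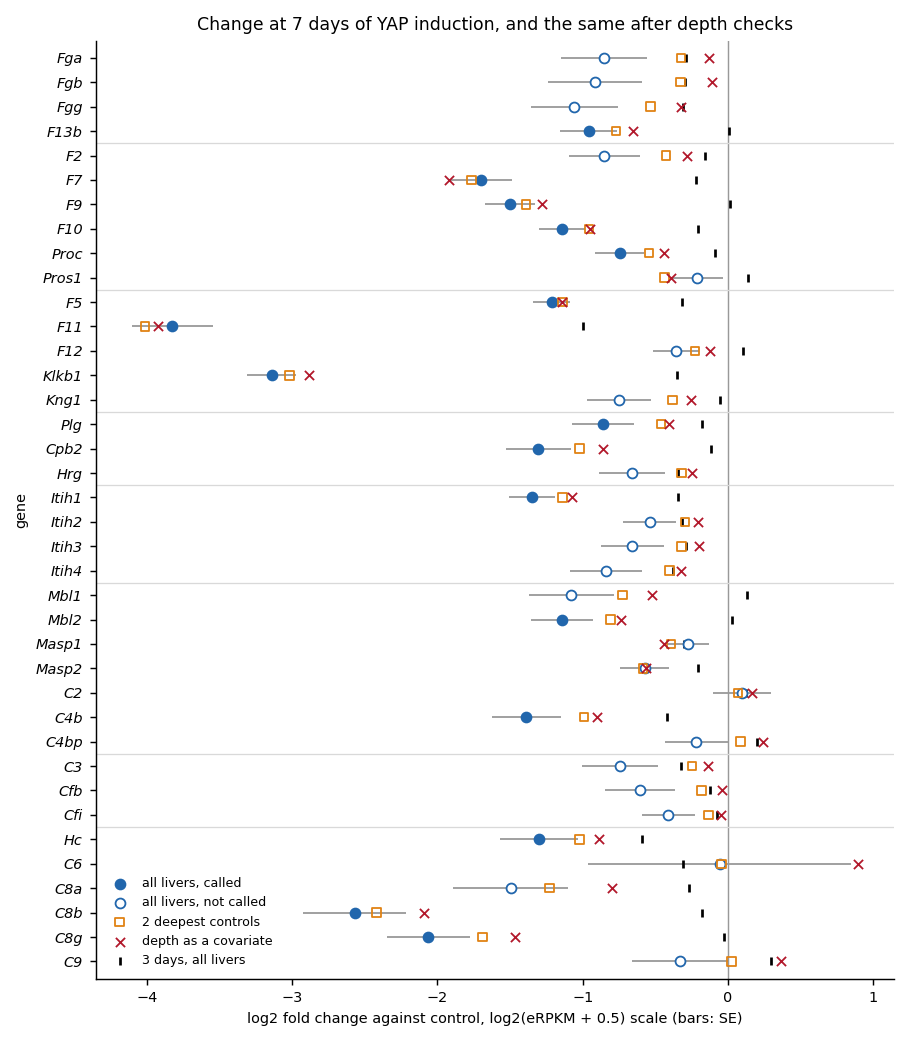
For each gene the horizontal axis gives the log2 fold change at 7 days against control with all livers (circles, filled where called, bars for the SE), with the 2 deepest controls (squares) and with depth as a covariate (crosses), and ticks mark the 3-day change. F11, Klkb1, F7 and F5 keep their place under the depth checks, whereas the fibrinogen genes, C3 and Cfb move from -0.61 to -1.06 toward 0. Of these, F11, Klkb1 and F7 had under 300 reads per kilobase and the others at least that many. A fall in the more abundant genes can be hidden, so the contrast may partly go with abundance, which was not tested.

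The starts of 5 of these 12 genes are shown, F11 and Klkb1 because they had the largest falls and are neighbours on chromosome 8, and C8b, F7 and F9 as falling genes of other roles or places. They were chosen after their values were seen. The stretches are the 150 bases before the start, 5′ to 3′, from RefSeq on GRCm38.p6, a build other than the mm9 of the expression table. They lie at chr8:45262032-45262181 (minus strand) for F11, chr8:45294836-45294985 (minus strand) for Klkb1, chr4:104766167-104766316 (plus strand) for C8b, chr8:13025884-13026033 (plus strand) for F7 and chrX:59999314-59999463 (plus strand) for F9. Capitals mark matches, on either strand, to letters that liver transcription factors or TEAD are known to prefer.
F11: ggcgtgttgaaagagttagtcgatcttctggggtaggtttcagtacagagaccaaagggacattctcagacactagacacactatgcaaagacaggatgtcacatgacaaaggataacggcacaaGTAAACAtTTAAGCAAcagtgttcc
Klkb1: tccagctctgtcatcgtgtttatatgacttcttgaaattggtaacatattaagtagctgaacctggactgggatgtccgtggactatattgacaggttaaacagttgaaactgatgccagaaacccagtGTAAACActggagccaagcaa
C8b: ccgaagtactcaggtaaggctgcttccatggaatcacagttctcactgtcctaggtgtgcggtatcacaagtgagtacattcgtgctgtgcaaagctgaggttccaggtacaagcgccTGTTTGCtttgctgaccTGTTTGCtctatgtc
F7: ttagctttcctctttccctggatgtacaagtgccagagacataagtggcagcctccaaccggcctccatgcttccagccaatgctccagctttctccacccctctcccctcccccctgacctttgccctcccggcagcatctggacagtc
F9: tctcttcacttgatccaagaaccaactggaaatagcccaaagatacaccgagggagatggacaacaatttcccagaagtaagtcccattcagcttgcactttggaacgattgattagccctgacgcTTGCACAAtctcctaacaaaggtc
The capitals in F11 are TGTTTAC, a FOXA motif, on the minus strand and TTNNGCAA, a C/EBP motif, and those in Klkb1 are TGTTTAC on the minus strand. C8b holds TGTTTGC, another FOXA motif, at both of its marked places, F9 holds the C/EBP letters on the minus strand, and F7 holds none of the motifs searched in this stretch. RefSeq start windows, from 250 bases before to 50 after the start, were at hand for 30 of the 38 genes, as 31 windows. The C/EBP letters were in 10 of the 31 (32.3%), against 10.8% of all 32851 windows. TGTTTAC was in 2 (6.45%, F11 and Klkb1), against 3.65%, and TGTTTGC in 2 (6.45%, C8b and F11), against 5.07%. The TEAD letters GGAATG were in 7 (22.6%), against 14.7%. The strict HNF4 letters CAAAGTCC were in 0 of the 31, against 1.42%, and the HNF1 palindrome in 0, against 0.0396%. The C/EBP and TGTTTGC letters can overlap when they lie on opposite strands. A match is a run of letters only, and its absence says nothing of binding.

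Fibrinogen, the precursor of the fibrin mesh, is built from the chains of Fga, Fgb and Fgg, which lie within one cluster on chromosome 3, and F13b is the carrier subunit of the factor that crosslinks fibrin. F13b had 118, 120, 135 and 177 eRPKM in control livers 1 to 4, 173, 125, 104 and 154 at 3 days, and 73.6, 69.8 and 65.6 at 7 days. The 7-day livers lay below all others. The log2 fold change was -0.96 (SE 0.20, limma adjusted p = 0.00204), and with the 2 deepest controls -0.77 (adjusted p = 0.0184), no longer past the threshold. Fga, the chain with the smallest change, had 231, 172, 321 and 538 eRPKM in controls, 267, 235, 233 and 212 at 3 days and 168, 144 and 167 at 7 days. Every 7-day value was below every control, but control 2 at 172 nearly met them. The log2 fold changes at 7 days were -0.85 for Fga, -0.92 for Fgb and -1.06 for Fgg, with adjusted p of 0.037, 0.0405 and 0.014, none past the threshold. With depth as a covariate they were -0.13, -0.11 and -0.32. Fgb was the most abundant of the 38 genes in every group, with 483 ± 269 eRPKM (SD, n = 4) in controls and 229 ± 13.2 (SD, n = 3) at 7 days, and control 2 stood at 248.

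The proportions of the chains are taken within each liver, so a scaling factor of the library cancels out of them. In controls they still went with depth. The ratio of Fga to Fgb was 0.695 and 0.694 in controls 1 and 2, the deepest, and 0.648 and 0.628 in controls 3 and 4. For Fgg to Fgb these values were 0.843 and 0.842, and 0.777 and 0.760. The ratio of Fga to Fgb was 0.628 to 0.695 in controls, 0.616 to 0.718 in 3-day livers and 0.672 to 0.711 in 7-day livers, so the groups overlapped, although 7-day livers 1 and 3 lay above every control. The ratio of Fgg to Fgb was 0.760 to 0.843 in controls, 0.787 to 0.807 in 3-day livers and 0.715 to 0.741 in 7-day livers, so the 7-day livers lay below all others. The log2 difference from control was -0.14, with an exact two-sided permutation p of 0.0571, the smallest that 4 against 3 livers allow, and 0.171 after Benjamini-Hochberg adjustment over 12 such tests. The design could therefore not pass 0.05 for any ratio at 7 days.

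Among the proteins that need vitamin K for their maturation, F7, which starts clotting together with tissue factor, F9 and F10, proteases further down the chain, and Proc, the precursor of an anticoagulant protease, fell at 7 days. F7 had 58.1, 69.5, 62.9 and 53.0 eRPKM in controls, 33.9, 66.3, 62.5 and 52.0 at 3 days, and 17.2, 16.7 and 21.4 at 7 days. Its lowest value before 7 days was that of 3-day liver 1, and the deepest control was the highest, the reverse of the order that abundant genes took with depth. F7 thus had a fall of 3.24-fold (log2 fold change -1.70, SE 0.21, limma adjusted p = 6.91e-05), and with the 2 deepest controls its log2 fold change was -1.77. F9 had 123, 119, 125 and 159 eRPKM in controls, 156, 131, 107 and 139 at 3 days, and 54.5, 42.3 and 41.6 at 7 days. The 7-day livers lay far below the lowest control and the lowest 3-day liver.

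F9 fell 2.83-fold (log2 fold change -1.5, SE 0.17, adjusted p = 3.72e-05). F10, whose annotated start follows the end of F7 by 1499 bases on chromosome 8, had 114, 106, 138 and 147 eRPKM in controls, 93.9, 121, 113 and 106 at 3 days, and 57.8, 49.2 and 62.8 at 7 days. Its fall was smaller than that of its neighbour, with a log2 fold change of -1.14 (SE 0.16, adjusted p = 0.000157), and the difference between both was not tested. Proc had 162, 138, 172 and 228 eRPKM in controls, 172, 172, 139 and 166 at 3 days, and 104, 99.1 and 105 at 7 days. Its log2 fold change of -0.75 (adjusted p = 0.0043) became -0.44 with depth as a covariate (adjusted p = 0.0178) and was then not called. F2, prothrombin, was not called, with -0.85 (adjusted p = 0.0161) and -0.28 with depth as a covariate. Pros1, the cofactor of activated protein C, changed least: 60.9, 43.8, 40.9 and 34.9 eRPKM in controls, 57.9, 49.9, 44.3 and 43.4 at 3 days, and 37.7, 38.2 and 38.2 at 7 days. Control 4 was below the 7-day livers, and Pros1 was not called (-0.21 on the log2 scale, SE 0.18, adjusted p = 0.375).

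The contact system, in which F12 and Klkb1, the gene of plasma prekallikrein, activate each other on surfaces with the help of Kng1, kininogen, and pass the signal on to F11, held the largest falls. F11 had 84.0, 53.3, 50.3 and 52.5 eRPKM in controls, 27.3, 36.6, 24.3 and 29.8 at 3 days, and 3.87, 2.11 and 5.86 at 7 days. The 3 groups did not overlap, and the 3-day livers lay between the others. F11 fell 14.2-fold at 7 days (log2 fold change -3.83, SE 0.28, limma adjusted p = 1.99e-06), and the step from 3 to 7 days was itself called (-2.83, adjusted p = 1.93e-05). Its 3-day value of -0.995 (SE 0.26) had an adjusted p of 0.123 and was not called. The smallest number of reads behind any of these values was 29, the lowest among all 38 genes. F11 thus went from rank 1303 among all genes by mean level in controls to rank 10558 at 7 days.

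Klkb1 had 124, 99.4, 116 and 150 eRPKM in controls, 117, 96.5, 77.3 and 91.6 at 3 days, and 12.6, 13.5 and 13.7 at 7 days. The 7-day livers were close to one another and far below the lowest other liver. The fall was 8.83-fold (log2 fold change -3.14, SE 0.17, adjusted p = 2.25e-07), and it was -3.02 with the 2 deepest controls and -2.88 with depth as a covariate. On mm9, F11 lies at chr8:46326524-46347385 and Klkb1 at chr8:46354796-46393820, both on the minus strand and 7411 bases apart, and an exon of Klkb1 overlaps one of Cyp4v3, so reads of those genes may be shared.

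F5, the cofactor that speeds up prothrombin cleavage, had 161, 141, 172 and 163 eRPKM in controls, 125, 136, 135 and 116 at 3 days, and 66.1, 68.4 and 70.4 at 7 days. All 3-day livers lay below the lowest control, although their change of -0.32 (adjusted p = 0.31) was not called. At 7 days F5 fell 2.32-fold (log2 fold change -1.21, SE 0.13, adjusted p = 2.52e-05), and control 4 did not stand out for it. Exons of F5 overlap those of Gm16548. F12, the member of this group with the smallest change, had 178, 162, 173 and 239 eRPKM in controls, 209, 211, 173 and 208 at 3 days, and 142, 141 and 152 at 7 days. Its log2 fold change was -0.36 (adjusted p = 0.0951) and turned to 0.21 after quantile normalization. Kng1, with -0.75 (adjusted p = 0.017), was -0.26 with depth as a covariate.

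**Figure D3:**
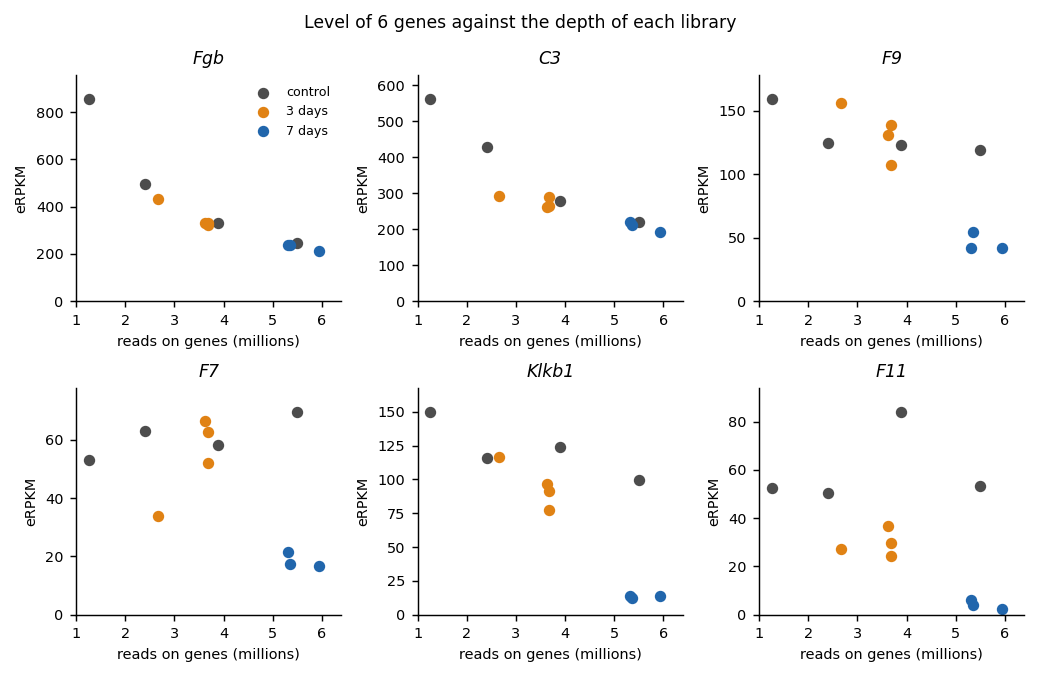
Each panel gives, for 1 gene, the eRPKM of each of the 11 livers against the depth of its library, counted as reads on genes, with grey for control, orange for 3 days and blue for 7 days. Fgb and C3 fall along 1 curve with depth and the 7-day points of Fgb, at 214 to 237 eRPKM, lie close to the deepest control at 248, while the 7-day points of F9, F7, Klkb1 and F11 lie well below it.

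In fibrinolysis, Plg is plasminogen, whose active form cuts fibrin, Cpb2 removes from fibrin the residues that plasminogen binds, and Hrg is a histidine-rich plasma protein that binds plasminogen. Cpb2 had 138, 110, 157 and 212 eRPKM in controls, 178, 123, 107 and 155 at 3 days, and 63.8, 55.7 and 61.7 at 7 days. The 7-day livers did not overlap the others. The log2 fold change was -1.31 (SE 0.22, limma adjusted p = 0.000676), and with depth as a covariate -0.86 (adjusted p = 0.00417). Plg had 138, 118, 212 and 232 eRPKM in controls, 156, 144, 148 and 147 at 3 days, and 94.9, 85.7 and 97.0 at 7 days. The lower controls were the deeper ones, and the log2 fold change of -0.86 (adjusted p = 0.00687) became -0.46 against them (adjusted p = 0.0241). Hrg had 227, 190, 294 and 376 eRPKM in controls, 191, 241, 236 and 167 at 3 days, and 183, 145 and 174 at 7 days. The 7-day livers overlapped the 3-day livers, and the change of -0.66 was not called (adjusted p = 0.0364).

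The inter-alpha-trypsin inhibitor heavy chains, several of which are transferred onto hyaluronan in the extracellular matrix, lie in part side by side on chromosome 14. Itih1, Itih3 and Itih4 are separated there by 5420 and 6592 bases. Itih1 had 173, 149, 199 and 234 eRPKM in controls, 149, 150, 141 and 147 at 3 days, and 73.1, 66.0 and 79.7 at 7 days. Its 7-day livers stood apart from all others, with a log2 fold change of -1.35 (SE 0.16, limma adjusted p = 4.92e-05). With depth as a covariate it was -1.07 (adjusted p = 0.000123). Its neighbours Itih3 and Itih4 had -0.66 (adjusted p = 0.0296) and -0.84 (adjusted p = 0.0185), and -0.20 and -0.32 with depth as a covariate, and neither was called. Itih2, on chromosome 2, had 197, 155, 222 and 272 eRPKM in controls, 170, 183, 165 and 148 at 3 days, and 146, 132 and 149 at 7 days. Its highest 7-day liver was above its lowest 3-day liver, and the change of -0.54 was not called (adjusted p = 0.0316).

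The lectin route of complement starts when Mbl1 or Mbl2, mannose-binding lectins, meet microbial sugars and their partner proteases Masp1 and Masp2 cut C4 and C2, while C4bp holds this route back. Mbl2 had 205, 188, 307 and 318 eRPKM in controls, 312, 218, 218 and 273 at 3 days, and 122, 104 and 110 at 7 days. The 7-day livers lay below all others, with a log2 fold change of -1.14 (SE 0.21, limma adjusted p = 0.00121) and -0.74 with depth as a covariate (adjusted p = 0.00593). Mbl1 was not called against control (-1.08, adjusted p = 0.0113) but was called against 3 days (-1.21, adjusted p = 0.00712), where it had 285, 175, 129 and 255 eRPKM against 91.9, 77.3 and 91.2.

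C4b had 134, 110, 175 and 253 eRPKM in controls, 111, 126, 132 and 109 at 3 days, and 52.8, 63.8 and 66.5 at 7 days. No 7-day liver overlapped another group, and C4b fell by 1.39 on the log2 scale (SE 0.24, adjusted p = 0.000609), or by 0.90 with depth as a covariate (adjusted p = 0.00328). C4b has a near-identical copy, C4a, so the split of reads between both genes is uncertain. C2 was the 1 gene of the 38 with a value above 0 at 7 days, with 107, 74.8, 75.2 and 97.7 eRPKM in controls, 89.6, 136, 89.9 and 75.4 at 3 days, and 91.1, 92.8 and 97.3 at 7 days. All groups overlapped, and the log2 fold change of 0.10 (SE 0.20, adjusted p = 0.725) was -0.17 with median-ratio size factors. Exons of C2 overlap those of Gm20547 and Zbtb12. Masp1 and Masp2 were the least abundant of this role, with 45.3 ± 4.61 and 44.9 ± 4.69 eRPKM (SD, n = 4) in controls, and changed by -0.27 and -0.57, not called (adjusted p = 0.154 and 0.0178). Exons of Masp2 overlap those of Tardbp. C4bp had a log2 fold change of -0.22 (adjusted p = 0.453), and 0.24 with depth as a covariate.

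None of the genes at the centre of complement was called at 7 days. All of them had at least 300 reads per kilobase, where a fall can be hidden, so they cannot be said to be spared. These are C3 itself, Cfb, the protease subunit of the alternative pathway convertase, and Cfi, which cleaves and inactivates C3b. Cfi, with the smallest change, had 181, 150, 220 and 267 eRPKM in controls, 198, 194, 183 and 182 at 3 days, and 157, 137 and 158 at 7 days. Control 2 lay among the 7-day livers. The log2 fold changes were -0.74 for C3, -0.61 for Cfb and -0.41 for Cfi, with limma adjusted p of 0.0405, 0.0663 and 0.0953. With the 2 deepest controls they were -0.25, -0.18 and -0.13. Cfb starts 86 bases from C2 on chromosome 17, and exons of Cfb overlap those of Gm20547, which also overlaps C2. By mean level at 7 days C3 and Cfb ranked 2 and 3 among the 38 genes, against 3 and 5 in controls.

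Among the terminal components, Hc, C8b and C8g fell at 7 days, and the level of some also went with Xist. Hc, the mouse gene of C5, C8a, C8b and C8g, the chains of C8, and C6 and C9 belong here, all parts of the membrane pore or its start. C8b had 144, 79.0, 88.5 and 196 eRPKM in controls, 148, 140, 61.7 and 93.5 at 3 days, and 14.2, 25.8 and 20.4 at 7 days. Its 7-day livers lay below every other liver, and the fall was 5.94-fold (log2 fold change -2.57, SE 0.36, limma adjusted p = 0.000143). Within Xist-high livers its log2 fold change was -2.07 (adjusted p = 0.000811).

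C8g had 180, 174, 222 and 398 eRPKM in controls, 295, 216, 159 and 254 at 3 days, and 63.7, 44.2 and 57.6 at 7 days. It also stood apart from both other groups, with a fall of 4.18-fold (log2 fold change -2.06, SE 0.29, adjusted p = 0.000148) and -1.47 with depth as a covariate (adjusted p = 0.000945). Hc had 175, 125, 174 and 273 eRPKM in controls, 110, 159, 138 and 83.3 at 3 days, and 90.1, 72.0 and 59.2 at 7 days. Its 7-day livers overlapped the lowest 3-day liver, and the log2 fold change of -1.30 (adjusted p = 0.00238) was -0.89 with depth as a covariate (adjusted p = 0.0414). Exons of Hc overlap those of Gm13449.

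C8a, which lies 11131 bases from C8b on chromosome 4, missed the threshold narrowly, with -1.49 (SE 0.40, adjusted p = 0.0100455). In Xist-high livers alone it was called lower (-0.90, limma adjusted p = 0.00998), and limma-voom called it too. It was not called with the 2 deepest controls or with depth as a covariate. The ratio of C8a to C8b was 1.47 to 1.95 in controls, 1.398 to 1.68 in 3-day livers and 2.503 to 4.57 in 7-day livers. The 7-day livers lay above all others, with a log2 difference of 1.08 from control (exact permutation p = 0.0571, two-sided, and 0.171 after adjustment). The ratio of C8g to C8b overlapped between groups, with 1.25 to 2.504 in controls and 1.71 to 4.497 at 7 days.

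C6 had 126, 22.2, 19.6 and 147 eRPKM in controls, 123, 135, 10.3 and 19.4 at 3 days, and 47.7, 59.6 and 48.0 at 7 days. Over control and 3-day livers, the 4 with low Xist had 123 to 147 eRPKM and the 4 with high Xist had 10.3 to 22.2, with nothing between. The 7-day livers, all with high Xist, lay between these sets. C6 therefore had a log2 fold change near 0 against all controls (-0.06, SE 0.90, limma adjusted p = 0.969), whereas in Xist-high livers alone it was called higher at 7 days, with 1.28 (SE 0.26, adjusted p = 0.00634), 1 of the 38 genes where 10.7% of all genes were called higher. With depth as a further covariate in those livers it was 1.17 (adjusted p = 0.0739) and not called. C8a, C8b and C9, too, were higher in every low-Xist than in every high-Xist liver of the control and 3-day groups, so 4 of the 38 genes (10.5%) had this order, against 1% of all genes. The reverse order was seen in 0 of the 38, against 3.67% of all genes. For C9 the low-Xist livers had 191 to 347 eRPKM and the high-Xist livers 96.9 to 183, and the 7-day livers at 128 to 152 lay within the latter. For C8a they had 222 to 383 and 92.2 to 141, and the 7-day livers at 64.7 to 76.2 lay below both. The 4 low-Xist livers also included control 4, the shallowest library. C2 and C6 were the genes in which every 7-day liver was above every high-Xist control and 3-day liver (2 of 38, 5.26%, against 29.4% of all genes).

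**Figure D4:**
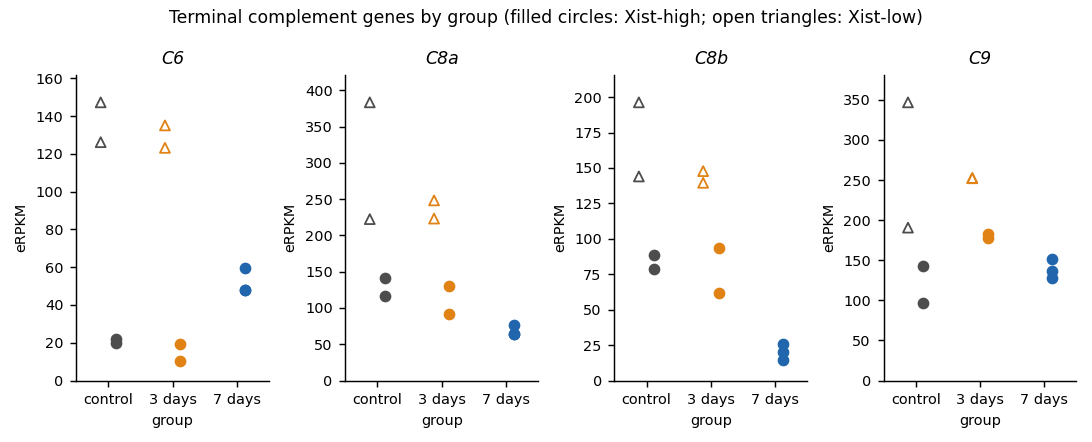
The vertical axis gives the eRPKM of C6, C8a, C8b and C9 in each liver by group, with filled circles for livers with high Xist and open triangles for those with low Xist. In controls and at 3 days the triangles lie above the circles in all 4 genes, at 123 to 147 against 10.3 to 22.2 eRPKM for C6, and the 7-day circles lie above the other circles for C6 and below them for C8a and C8b.

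From 3 to 7 days, 14 of the 38 genes were called lower (36.8%) and 0 higher, where 5.31% of all genes were called lower and 14% higher. This comparison and that with control share the 7-day livers, so they are not independent. The genes were F13b, F7, F9, F10, F5, F11, Klkb1, Cpb2, Itih1, Mbl1, Mbl2, C4b, C8b and C8g, of which 13 were also called against control. The largest steps were those of F11, Klkb1, C8b and C8g (-2.83, -2.79, -2.39 and -2.04). For 31 of the 38 genes (81.6%) every 7-day liver lay below every 3-day liver, against 13.8% of all genes, and against controls the count was also 31 (81.6%, against 13.3%). No 3-day library was as deep as a 7-day library, and with depth as a covariate 12 were called (31.6%, against 4.13%). Days of YAP induction and days of doxycycline food cannot be told apart in this step, and some 3-day livers had low Xist. In Xist-high libraries 11 were called lower (28.9%, against 2.82%) and 1 higher (2.63%, against 7.18%). With depth as a further covariate there, 2 were called lower (5.26%, against 0.618%).

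The genes around these, taken from 7 lists of clotting and complement genes that the liver or its other cells make, moved both ways at 7 days. Of 78 listed genes 73 were tested, 19 were called higher and 12 lower at 7 days, where 18% of all genes were called higher and 5.77% lower. With the 2 deepest controls 16 were higher and 8 lower, where 9.87% and 4.06% of all genes were. The calls of F13a1, Pzp, Ggcx, Lman1, Tpst2 and F11r were among those lost. At 3 days 0 were called in either direction. The list of initiation and vessel wall genes held 7 that rose (F13a1, Thbd, Procr, Plau, Plaur, Anxa5 and Anxa2) and 2 that fell (F8 and Tfpi2) of 14 tested, with a median of 1.19. Of 11 genes on the list of plasma protease inhibitors, Serpind1, Pzp and Proz, the last not itself an inhibitor, fell and 0 rose, with a median of -0.90. Of 8 genes of the vitamin K cycle and of clotting factor secretion, Ggcx, the carboxylase that vitamin K serves, and Lman1, a cargo receptor for F5 and F8, fell, and Tpst2 rose. Of 10 other plasma proteases and cofactors Hgfac fell and F11r rose, an adhesion molecule despite its symbol.

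Of 12 classical and lectin pathway genes C1qa, C1qb, C1qc and Fcna rose and C1rl fell. Of the alternative pathway list Cfp, properdin, rose. Of 13 complement receptors and membrane regulators C3ar1, C5ar1, Itgam, Itgb2 and Vsig4 rose and 0 fell. The C1q chains, Fcna, Vsig4, Cfp and the receptors are known from macrophages, whose markers rose as given above, and the part of that shift was not tested.

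Among called genes with a mean of at least 1 eRPKM, the largest rises were those of Plaur, the urokinase receptor, C5ar1, the receptor of the C5a fragment, and Plau, urokinase. Plaur had 0.771, 0.546, 1.498 and 0 eRPKM in controls and 19.9, 10.3 and 28.5 at 7 days (log2 fold change 4.11, SE 0.45). C5ar1 had 0.581 to 1.03 in controls and 24.2, 8.44 and 37.5 at 7 days (3.999, SE 0.40). Plau had 0.328 to 2.16 in controls and 15.6, 12.4 and 23.1 at 7 days (3.43, SE 0.36). All 3 were near 1 eRPKM in controls, so the size of the rise rests on the pseudocount. Among the falls, Tfpi2, a protease inhibitor of the matrix, had 68.8 to 83.9 eRPKM in controls and 19.2, 18.4 and 17.6 at 7 days (-2.07, SE 0.24). Hgfac, the activator of hepatocyte growth factor, had 91.5 to 124 in controls and 23.6, 38.1 and 30.8 at 7 days (-1.80, SE 0.20). The limma adjusted p of these 5 genes ran from 1.65e-05 to 4.53e-05.

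**Figure D5:**
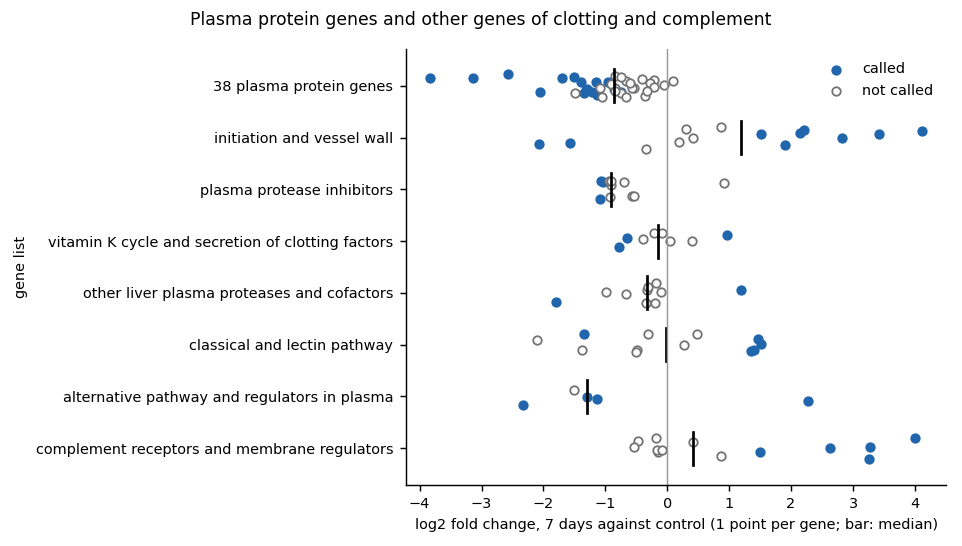
Each point is a gene, placed by its log2 fold change at 7 days against control, filled where called, with a bar at the median of its list. The 38 plasma protein genes and the protease inhibitor list lie almost wholly below 0 (medians -0.86 and -0.90), while genes of initiation and vessel wall and complement receptors reach 4.11 and 3.999.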

How the data were processed

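Total RNA of homogenized livers was sequenced from TruSeq RNA v2 libraries, 4 control, 4 after 3 days and 3 after 7 days of induction. Per the labels and the study's methods, the authors aligned reads to mm9 with TopHat2 2.0.8 and counted them per gene with featureCounts 1.4.5-p1. The values they deposited are eRPKM, an RPKM on gene exons. Its exact formula, the annotation, and the treatment of duplicate reads are not given in the sources used here. Further deposited columns give the authors' own DESeq2 mean signal, log2 fold change and adjusted p-value for 7 days against control, which were not used.

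The 38 genes and the pathway and marker lists were chosen with earlier results of these data known. Values were tested as log2(eRPKM + 0.5) with limma 3.58.1 (R 4.3.3, trend in eBayes) in 1 fit of the 3 groups, over genes that reached 0.5 eRPKM in 3 or more libraries. Calls needed a log2 fold change beyond 0.5 in either direction and a p, adjusted by Benjamini-Hochberg, below 0.01. Fold changes are on the log2(eRPKM + 0.5) scale. Reads were recovered from the steps of the values, of which 100% came out whole within 0.1, and were tested with limma-voom, which called 3749 genes at 7 days. Depth is the sum of these reads. Chain ratios were compared with exact two-sided permutation tests. Values in every liver are given for each called gene of a role and for the gene of the role with the smallest change at 7 days. From the pathway lists they are given for the 3 largest rises and falls among called genes with a mean of at least 1 eRPKM. Some results that this rule covers are not reported here. The labels name separate samples without saying more of the animals, so p-values measure the spread between these samples. The script was tested on simulated data. Promoters came from RefSeq on GRCm38.p6 and gene positions from GENCODE on mm9.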

Additional observations from a re-analysis of the deposited data

Results flagged for a closer look

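In 5 of the 76 groups of 4 livers 1 liver stood apart from the rest, with a gap to its nearest neighbour, as a share of the range of the group, above the 95% critical value of Dixon's test. Chance gives about 1 in 20. These were 3-day liver 1 for Fgb (0.914) and Fgg (0.879), 3-day liver 3 for F12 (0.908), control 4, the shallowest library, for F9 (0.852) and control 1 for F11 (0.911).

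Levels differed between 3 and 7 days of induction in 14 genes, by the limma test of 7 against 3 days. These groups also differed in days of doxycycline, in Xist and in depth. The log2 differences were -0.97 for F13b, -1.48 for F7, -1.52 for F9, -0.93 for F10, -0.90 for F5, -2.83 for F11 and -2.79 for Klkb1. For fibrinolysis, matrix and complement genes they were -1.19 for Cpb2, -1.01 for Itih1, -1.21 for Mbl1, -1.17 for Mbl2, -0.97 for C4b, -2.39 for C8b and -2.04 for C8g.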

How the results depend on the processing

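Over 30 fits, the reported one included, the number of the 38 genes called ran from 3 to 29 at 7 days against control, from 2 to 21 at 7 against 3 days, and was 0 in each for 3 days against control. The count of 29 came with an adjusted p under 0.05 and any fold change, and those of 3 and 2 in Xist-high libraries with depth as a covariate, a fit chosen after seeing the data. Leaving out 1 library gave 12 (without 7-day liver 3) to 27 (without control 2) against control and 10 to 17 against 3 days. The fit with the replicate number as a block called 13, 12 and 0 genes. Correlations of same-numbered libraries ran from -0.222 to 0.269. They were not compared with those of other pairs, so they cannot show whether the numbers pair the samples. All genes called at 7 days numbered 3383, against 1676 with depth as a covariate, 1985 with the 2 deepest controls and 2128 in Xist-high libraries. The scaling moved the median of all genes from 0.26 to 0.03 (size factors) and -0.08 (quantile), with 822 lower and 2561 higher as deposited, 1254 and 1951, and 1821 and 1857, while the median of the 38 genes was -0.86, -1.13 and -0.33. Directions at 7 days turned for genes not called. Quantile normalization gave 0.21 for F12, 0.045 for Hrg, 0.035 for Itih2, 0.46 for C4bp, 0.0495 for C3, 0.14 for Cfb, 0.21 for Cfi, 0.13 for C6 and 0.29 for C9, and size factors gave -0.17 for C2. Depth as a covariate gave 0.24 for C4bp, 0.90 for C6 and 0.36 for C9, and the 2 deepest controls 0.086 for C4bp and 0.024 for C9. Xist-high libraries gave 0.0052 for C4bp, 1.28 for C6 and 0.23 for C9, and with depth 0.19 for C4bp, 0.022 for Cfi, 1.17 for C6 and 0.52 for C9. C6 was 1.09 with log2 Xist as a covariate and 0.058 with limma-voom. Leaving out 1 library gave -0.35 to 0.0017 for C4bp and -0.53 to 0.43 for C6. For the ratios at 3 days it gave -0.026 to 0.048 for Fga to Fgb, -0.043 to 0.0074 for Fgg to Fgb, -0.13 to 0.0027 for C8a to C8b and -0.053 to 0.32 for C8g to C8b. The cause of these changes was not tested.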
